A study of Mus musculus with 32 samples.

Results

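The mRNA levels of 10 genes of the major histocompatibility complex (MHC) class I antigen presentation pathway, out of 22337 genes in each deposited table, were followed in the hippocampus (HPC), in the meninges and in sorted meningeal lymphatic endothelial cells (mLECs) of WT, 5xFAD and light-treated 5xFAD mice. The genes were chosen by symbol and joined between the tables by gene identifier, and all 10 were found in each table. They are the heavy chains H2-D1 and H2-K1, the light chain B2m, the peptide transporter subunits Tap1 and Tap2, the loading factor Tapbp, the immunoproteasome subunits Psmb8, Psmb9 and Psmb10, and the transactivator Nlrc5. Class I molecules show peptides of a cell's own proteins to CD8 T cells and natural killer (NK) cells. Proteasomes cut the proteins, the TAP transporter carries the peptides into the endoplasmic reticulum, tapasin (the product of Tapbp) holds the empty class I molecule at the transporter, and the loaded pair of heavy chain and beta-2-microglobulin moves to the surface. In the brain most cells carry little class I at rest, microglia are its main immune cells, and interferons raise most genes of the pathway in many cell types.

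The 32 samples came from male mice aged 6 months, 1 mouse per sample, on a C57BL/6J background. HPC was taken from 4 WT, 4 5xFAD and 4 light-treated 5xFAD (5xFAD+L) mice, and both the meninges and the mLECs from 4 WT, 3 5xFAD and 3 5xFAD+L mice. 5xFAD mice carry human transgenes with familial Alzheimer's disease mutations under the regulatory sequence of mouse Thy1, a promoter that drives them in neurons, and WT mice were littermates without the transgenes. Light-treated mice received near-infrared light through the skull for 10 min, 3 times per week for 4 weeks, while WT and untreated 5xFAD mice had the same anaesthesia and shaving under room light. mLECs were sorted from the meninges of 1 mouse each as live CD45- CD31+ PDPN+ cells, a gate that removes leukocytes. Libraries were made with Smart-seq2, which reads poly(A) RNA along its whole length from little input and does not mark strand. An HPC library held 13952825 to 23856476 counts, a meninges library 6601143 to 14708202 and an mLEC library 14231415 to 24207326. Between 16371 and 18264 genes had a count in an HPC library and between 17427 and 19769 in a meninges library, against 5998 to 9020 in an mLEC library. The authors deposited an expected count and an FPKM for each gene, a fragment count scaled by transcript length and library size. Levels are given below as FPKM, which can be compared between genes, and differences as log2 fold changes fitted by edgeR to the rounded counts.

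Several libraries stood apart from the others of their group, and the results that rest on them are given with and without them where they moved. All 5 neuron markers were present in every HPC library (summed FPKM from 1381 to 1910). Markers of the choroid plexus, the epithelium that makes cerebrospinal fluid and lies against the hippocampus, summed to 2822 FPKM in WT replicate 2 and to 3218 and 2941 in 5xFAD replicates 1 and 2, against 36.4 to 697 in the other 9 HPC libraries, with Ttr the most abundant. The meninges libraries carried all 10 markers of leptomeningeal fibroblasts (1573 to 2893 FPKM summed) and also those of choroid plexus (15770 to 49630) and of the pineal gland (74.0 to 697). Light-treated meninges replicate 1 had erythroid markers at 48540 FPKM summed, against 6461 and 16790 in the others of its group, and neutrophil markers at 7327, against 630.4 and 686. In the mLEC libraries the 4 pan-leukocyte markers, Ptprc, Cd52, Coro1a and Laptm5, were listed at 0 throughout, while markers of single leukocyte types were above 0 in some of them: Cd79a, the only 1 of 6 B and plasma cell markers above 0, at 5.95 to 16.48 FPKM in 4 libraries, and among the border macrophage markers F13a1 at up to 45.6, Mrc1 at up to 14.97 and Pf4 at up to 14.1, and among the microglial markers P2ry12 at 42.5 in WT replicate 2 and C1qb at 40.3 in WT replicate 3. Erythroid markers summed to 12370 FPKM in mLEC 5xFAD replicate 4, against 0.46 and 46.7 in the others of its group. In mLEC WT replicate 2 they summed to 510.9 FPKM, against 0.67, 0.94 and 18.07 in the other WT libraries. That library also had the choroid plexus marker Ttr at 562.89 FPKM and the oligodendrocyte marker Mbp at 254.79. Over the mLEC libraries the astrocyte marker Gja1 was at 96.2 to 443.69 FPKM and the choroid plexus marker Aqp1 at 0.26 to 741.84. Pericyte and smooth muscle markers summed to 454.9 FPKM in WT replicate 4, with Rgs5 the most abundant, and to 406.0 and 610.7 in 5xFAD replicates 1 and 2, with Acta2 the most abundant, against 0.19 to 67.1 in the other 7 mLEC libraries. Leptomeningeal fibroblast markers summed to 16.4 to 611.5 FPKM, the highest in 5xFAD+L replicate 1, where Dcn was the only one of them above 0, and 1 to 5 of the 10 markers were above 0 in a library. The part of these cells in the mLEC levels was not tested. All 8 blood endothelial markers were present in each mLEC library (1459 to 4293 FPKM summed). The 8 lymphatic markers summed to 7078, 227, 4678 and 302 FPKM in the WT libraries, to 1447, 2082 and 4728 in 5xFAD and to 9930, 3347 and 9004 in 5xFAD+L. Ccl21a made up most of the sum in every library but WT replicates 2 and 4, for example 6533.78 FPKM in WT replicate 1. The lymphatic marker Prox1 did not exceed 5.71 FPKM in WT, 0.75 in 5xFAD and 4.2 in 5xFAD+L libraries. WT replicates 2 and 4, the low libraries in this list, had Lyve1 and Pdpn at 0 and Pecam1, which blood vessels share, as the most abundant lymphatic marker, so the label of these 2 libraries as lymphatic endothelium was not borne out by its markers. Pdpn, one of the proteins of the sort, was also at 0 in 5xFAD replicates 2 and 4. Among 14 constitutive proteasome genes that every cell uses, 5 values were below 1 FPKM in the mLEC libraries (2 in WT replicate 1 and 3 in WT replicate 2), while no value was below 78.2 FPKM in HPC or meninges. A 0 in these low-input libraries is therefore given only as listed at 0.

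Of the 10 genes, 7 lie on chromosome 17 in the MHC region (GRCm38 coordinates of GENCODE vM21). H2-K1 (ENSMUSG00000061232) spans chr17:33996017-34000347 on the minus strand and H2-D1 (ENSMUSG00000073411) spans chr17:35262730-35267499 on the plus strand. Between them lie Psmb9 (ENSMUSG00000096727, chr17:34181987-34187764, minus strand), Tap1 (ENSMUSG00000037321, chr17:34187553-34197225), Psmb8 (ENSMUSG00000024338, chr17:34197721-34201454) and Tap2 (ENSMUSG00000024339, chr17:34203527-34216321), a block in which transporter and immunoproteasome genes alternate. Tapbp (ENSMUSG00000024308) lies at chr17:33915899-33929292. B2m (ENSMUSG00000060802) is on chromosome 2 (chr2:122147686-122153083), and Psmb10 (ENSMUSG00000031897, chr8:105935735-105938444) and Nlrc5 (ENSMUSG00000074151, chr8:94434356-94527272) are on chromosome 8. Tap1 and Psmb9 overlap head to head on opposite strands over 212 exonic bases, 3.87% of the exonic bases of Tap1 and 5.79% of those of Psmb9, and without strand the reads of these bases cannot be told apart. The heavy chains share sequence with their relatives: 3.59% of the 100-base windows of H2-D1 transcripts and 0.957% of those of H2-K1 also occur in another gene, chiefly H2-Q1 and H2-Q10, and 12.8% and 9.63% of their 50-base windows do. Tapbp and Psmb8 share exonic bases with antisense genes (24.9% with Gm19412 and 14.7% with Gm20496), and Tap2 shares 14.1% with Gm15821, so part of their counts is uncertain. No such overlap was found for B2m or Psmb10.

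In WT mice the pathway was lower in HPC than in meninges. B2m was the most abundant member there (202 ± 24.3 FPKM, SD, n = 4), followed by Psmb10 (38.9 ± 3.39), H2-D1 (28.1 ± 2.16), H2-K1 (18.6 ± 2.62) and Tapbp (15.3 ± 0.795). The inducible subunit Psmb8 reached 6.38 ± 0.542 FPKM, Tap2 3.89 ± 0.391, Psmb9 1.75 ± 0.299 and Tap1 1.28 ± 0.075, and Nlrc5 was close to the limit of detection at 0.0575 ± 0.0275. Only H2-K1 and Tapbp overlapped among neighbours in this order. In WT meninges the order was B2m (1103 ± 407 FPKM, SD, n = 4), H2-D1 (342 ± 76.5), H2-K1 (266 ± 56.2), Tapbp (93.6 ± 18.9), Psmb8 (89.8 ± 26.6), Psmb10 (73.1 ± 19.0), Psmb9 (30.9 ± 8.99), Tap2 (15.2 ± 4.34), Tap1 (9.43 ± 2.92) and Nlrc5 (2.00 ± 0.627). There the heavy chains overlapped each other, as did the group of Tapbp, Psmb8 and Psmb10 and the pair of Tap2 and Tap1. Psmb10, second in WT HPC, thus stood sixth in WT meninges. B2m was the highest and Nlrc5 the lowest in the mean of each of the 9 groups.

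All 10 genes were higher in WT meninges than in WT HPC (edgeR's quasi-likelihood test over 22 libraries, Benjamini-Hochberg adjusted p from 4.61e-10 to 0.00124), 9 of them by at least 2-fold, and no WT meninges library overlapped a WT HPC library in any member. The comparison was a broad one: 39.9% of the 15132 tested genes were higher in meninges by the same rule, 30.1% by at least 2-fold, and 36.1% were higher without overlap. Nlrc5, at a log2 fold change of 4.67 (SE 0.547), passed the filter on low values in this fit through the meninges, where it is high, and had 2 to 7 counts in a WT HPC library, so its place in these counts is fixed by the filter. Among the other 9 genes, all higher and 8 of them by at least 2-fold, the inducible catalytic subunits Psmb9 (3.96, SE 0.37) and Psmb8 (3.82, SE 0.314) differed most. H2-K1 and H2-D1 followed at 3.67 (SE 0.279) and 3.53 (SE 0.341). Tap1 stood at 2.77, Tapbp at 2.54, B2m at 2.38 and Tap2 at 1.90, and Psmb10 was the least different at 0.83 (SE 0.208). The median was 3.15 over the 10 genes, 2.77 without Nlrc5 and 0.12 over all tested genes. Of the 16 other class I heavy chains tested here, only 9 passed the filter in HPC alone. The rest passed only with the meninges libraries, so their direction was largely set by the filter. With them, 15 of the 16 were higher in meninges, Fcgrt, the neonatal Fc receptor, with the lowest p (4.08, SE 0.22). By contrast, 1 of the 3 constitutive proteasome subunits that the immunosubunits replace was higher. All 12 tested genes of the cells that read class I, with Pirb (4.24, SE 0.391), Nkg7 (7.11, SE 0.656), Cd3g (7.32, SE 0.857) and Cd8b1 (8.84, SE 1.20) at the lowest p, were also higher in meninges. Markers of neutrophils (5 of 5), B and plasma cells (6 of 6), border macrophages (6 of 6), leptomeningeal fibroblasts (10 of 10) and choroid plexus (5 of 5) were higher there too, those of neurons, astrocytes and oligodendrocytes were lower (5 of 5 each), and those of microglia were divided, with 4 higher and 6 lower of 10. The part of cell composition in these differences was not tested, and in bulk tissue more cells of a type and more RNA per cell cannot be told apart.

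In the mLEC libraries, whose table was normalized apart so that levels can only be set side by side, B2m ranged from 3021 to 6895 FPKM over the 10 libraries, H2-D1 from 1178 to 2973 and H2-K1 from 395 to 1248. These ranges lie above the highest meninges values of the same genes (2395, 592 and 371 FPKM). Tapbp, which ranged from 136 to 425 FPKM, was also above its highest meninges value of 121. The immunoproteasome subunits overlapped the meninges, Psmb8 at 109 to 895 FPKM against a highest meninges value of 145, Psmb9 at 28.3 to 127 against 69.9 and Psmb10 at 73.3 to 286 against 93.1. Markers of leukocytes, blood endothelium and other cells in these libraries were as given above. The ranges include WT replicates 2 and 4, which were low in lymphatic markers. The part in these levels of other cells, or of the smaller number of genes with a count in an mLEC library, was not tested. Tap1, Tap2 and Nlrc5 were instead scattered between 0 or near 0 and levels above those of whole meninges.

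**Figure D1:**
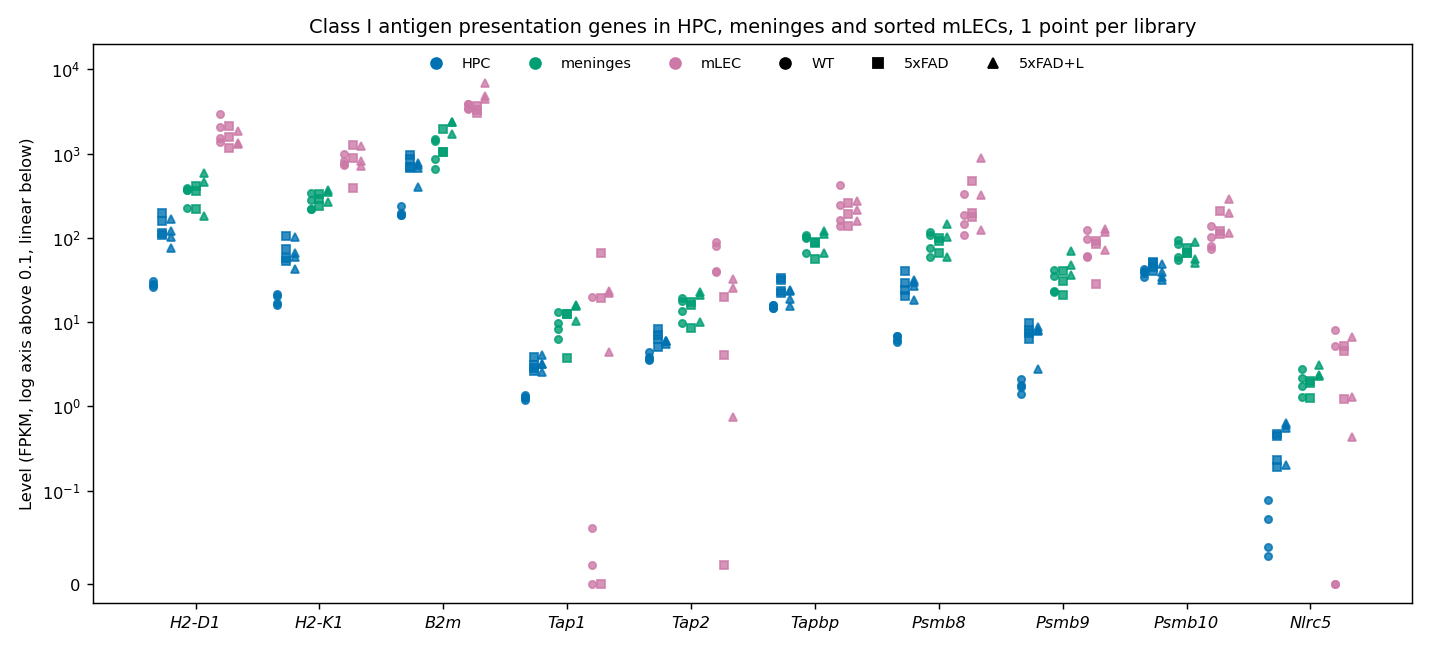
FPKM of each of the 10 genes in every library, with HPC in blue, meninges in green and mLECs in pink and WT as circles, 5xFAD as squares and 5xFAD+L as triangles; the axis is logarithmic above 0.1 and linear below. In the group means B2m is highest and Nlrc5 lowest in each preparation, the HPC WT circles lie below the HPC squares for every gene but Psmb10, and in mLECs Tap1, Tap2 and Nlrc5 spread from 0 or near 0 to 66.0, 89.4 and 8.01 FPKM.

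The comparison of untreated 5xFAD with WT mice asks how the transgenes and the amyloid they produce relate to the pathway. In HPC, 8 of the 9 tested members were higher in 5xFAD mice, 6 of them by at least 2-fold, and every 5xFAD sample lay above every WT sample for these 8 genes. By the same rules 6.48% of the 12981 tested genes were higher, 4.23% were higher by at least 2-fold and 8.75% were higher without overlap. The median log2 fold change was 1.97 over the tested members and 0.015 over all tested genes. Nlrc5 was below the filter of 1 FPKM in 3 samples and is described apart.

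The heavy and light chains, which form the class I molecule itself, rose by 3.93- to 5.18-fold. H2-D1 was at 31.1, 27.4, 26.0 and 28.04 FPKM in the 4 WT mice, at 197, 114, 108 and 159.9 in 5xFAD mice and at 169, 74.8, 119.7 and 101 in 5xFAD+L mice. Every mouse of both 5xFAD groups lay above every WT mouse, and the fitted difference between 5xFAD and WT was 5.18-fold (log2 fold change 2.37, SE 0.245, adjusted p = 5.96e-05 by edgeR). H2-K1 was at 21.3, 20.4, 16.8 and 16.0 FPKM in WT, at 104.6, 53.8, 58.3 and 73.8 in 5xFAD and at 102.6, 42.7, 65.5 and 59.6 in 5xFAD+L mice. Replicate 1 was the highest of both 5xFAD groups in both heavy chains, the groups did not overlap WT, and H2-K1 rose 3.93-fold (log2 1.97, SE 0.261, edgeR adjusted p = 0.0003). B2m was at 187, 198, 238 and 186 FPKM in WT, at 962, 666, 873 and 689 in 5xFAD and at 677, 407, 783 and 726 in 5xFAD+L mice. The light chain rose 3.98-fold (log2 1.99, SE 0.208, edgeR adjusted p = 5.96e-05), and its groups did not overlap. B2m per heavy chain, the FPKM of B2m over the sum of H2-D1 and H2-K1, was 4.37 ± 0.84 in WT, 3.84 ± 1.04 in 5xFAD and 3.68 ± 0.907 in 5xFAD+L mice (SD, n = 4), so the 3 groups overlapped in this ratio.

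The transport and loading genes were higher by smaller steps. Tap1, which forms the peptide channel with Tap2, was at 1.26, 1.20, 1.29 and 1.38 FPKM in WT, at 3.84, 2.64, 2.87 and 3.08 in 5xFAD and at 4.04, 2.53, 3.22 and 3.16 in 5xFAD+L mice, a 2.45-fold rise in 5xFAD (log2 1.30, SE 0.19, edgeR adjusted p = 0.000668). Its WT values lay close together and below both 5xFAD groups. Tap2 was at 3.86, 4.45, 3.59 and 3.66 FPKM in WT, at 7.10, 6.31, 5.04 and 8.33 in 5xFAD and at 5.99, 5.98, 5.42 and 5.89 in 5xFAD+L mice, and rose 1.74-fold (log2 0.80, SE 0.137, edgeR adjusted p = 0.00233). Tapbp was at 16.0, 15.9, 14.6 and 14.6 FPKM in WT, at 31.3, 23.5, 22.2 and 33.3 in 5xFAD and at 19.0, 15.6, 23.5 and 24.3 in 5xFAD+L mice, and rose 1.82-fold in 5xFAD (log2 0.87, SE 0.16, edgeR adjusted p = 0.00374). In Tapbp 1 light-treated mouse, replicate 2, fell within the WT range. Among the partners of the loading complex that also fold other proteins, Calr (log2 0.04, SE 0.101), Canx (-0.05, SE 0.093) and Pdia3 (0.07, SE 0.097) did not pass the test, while the peptide-trimming enzyme Erap1 (0.85, SE 0.151) and the tapasin relative Tapbpl (0.49, SE 0.133) rose, 2 of 11 tested genes of this group.

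**Figure D2:**
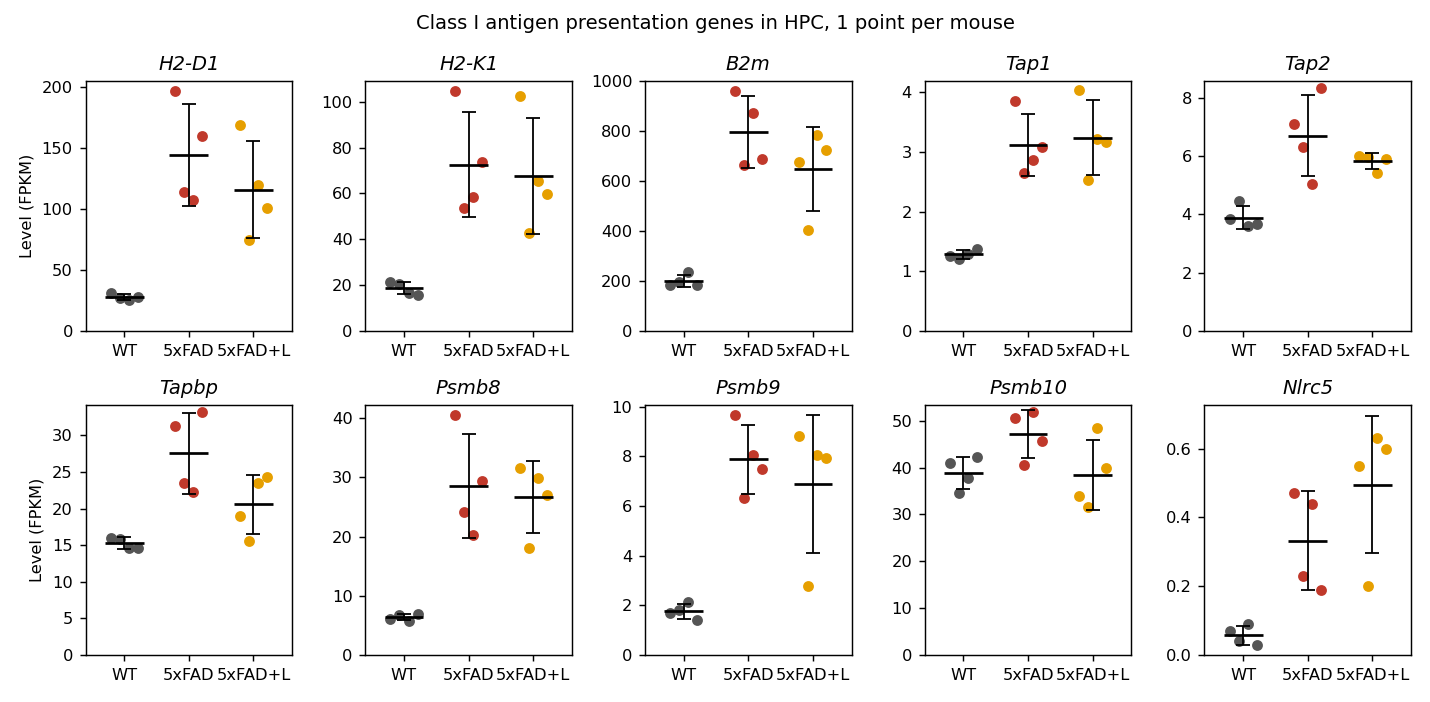
FPKM of each gene in HPC, 1 point per mouse, with 4 WT (grey), 4 5xFAD (red) and 4 5xFAD+L (yellow) mice, the mean as a wide line and the SD as the error bar; each panel has its own axis from 0. In 9 of the 10 panels, all but Psmb10, every 5xFAD mouse lies above every WT mouse, and the light-treated mice overlap the untreated 5xFAD mice in all 10 panels.

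The 3 immunoproteasome subunits, which take the place of constitutive catalytic subunits and change the cuts made, did not move alike. Psmb8 was at 6.05, 6.81, 5.79 and 6.87 FPKM in WT, at 40.6, 24.2, 20.3 and 29.3 in 5xFAD and at 31.7, 18.1, 29.9 and 27.01 in 5xFAD+L mice. It rose 4.55-fold in 5xFAD mice (log2 2.19, SE 0.249, edgeR adjusted p = 0.000109). Psmb9 was at 1.68, 1.81, 2.12 and 1.40 FPKM in WT, at 9.66, 6.32, 8.05 and 7.48 in 5xFAD and at 8.82, 2.77, 8.05 and 7.91 in 5xFAD+L mice. It rose 4.36-fold (log2 2.13, SE 0.326, edgeR adjusted p = 0.000949), and light-treated replicate 2, while lower than its group, was still above every WT mouse. Psmb10 was at 40.9, 34.7, 37.8 and 42.3 FPKM in WT, at 50.7, 40.6, 51.9 and 45.6 in 5xFAD and at 33.9, 31.6, 48.5 and 39.9 in 5xFAD+L mice. Its groups overlapped and it did not pass the test (log2 0.29, SE 0.146, 95% interval from -0.03 to 0.60, edgeR adjusted p = 0.249). It was also the immunosubunit with the highest level in WT HPC.

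Set against the constitutive subunit that each replaces, Psmb8 reached 1.92 ± 0.197% of Psmb5 in WT, 9.29 ± 2.23% in 5xFAD and 7.57 ± 1.52% in 5xFAD+L HPC (ratio of FPKM, SD, n = 4), and the lowest 5xFAD mouse (7.36%) lay above the highest WT mouse (2.08%). Psmb9 reached 0.726 ± 0.124% of Psmb6 in WT, 3.02 ± 0.465% in 5xFAD and 2.69 ± 1.04% in 5xFAD+L HPC. Psmb10 was at 24.2 ± 2.10%, 28.6 ± 3.04% and 24.6 ± 3.12% of Psmb7. The constitutive subunits Psmb5 (log2 -0.12, SE 0.117), Psmb6 (0.12, SE 0.10) and Psmb7 (0.05, SE 0.092) did not pass the test in 5xFAD HPC, nor did any of the 11 other core subunits, whose log2 fold changes ran from 0.03 to 0.15. Of the proteasome activator genes, 1 of 5 rose, Psme2 (0.44, SE 0.124). In meninges the group means of these ratios were higher than in HPC, at 32.1%, 32.9% and 41.9% for Psmb8 in WT, 5xFAD and 5xFAD+L, 7.61%, 8.84% and 15.1% for Psmb9, and 46.6%, 52.2% and 43.4% for Psmb10, and the groups overlapped except in Psmb9 between 5xFAD+L (11.6% to 19.4%) and WT (5.34% to 9.37%).

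**Figure D3:**
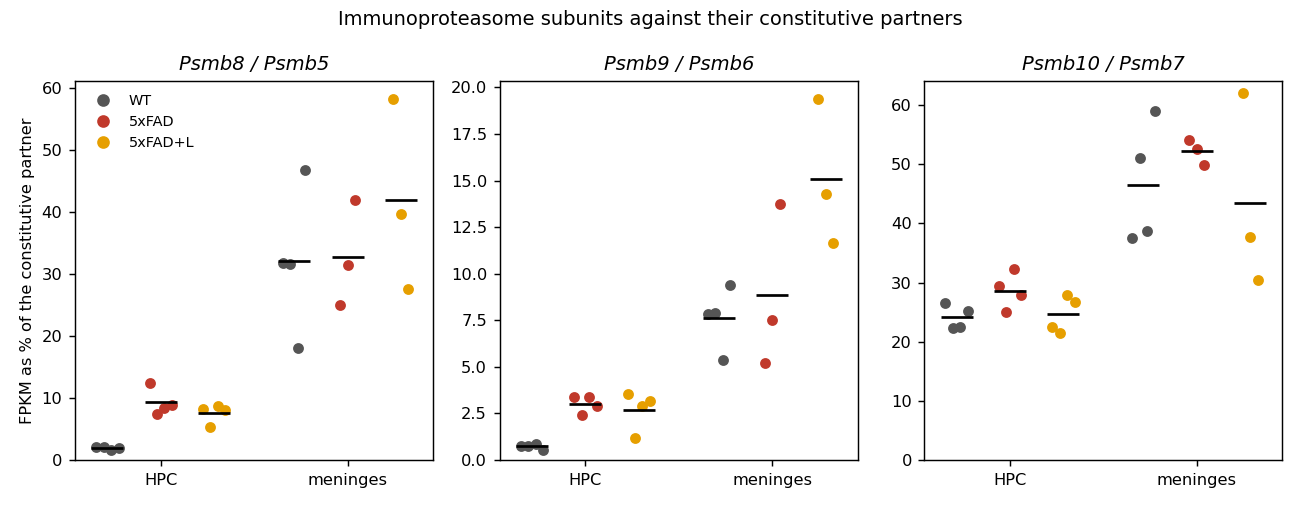
FPKM of each immunoproteasome subunit as a percentage of the FPKM of its constitutive partner, 1 point per library and the group mean as a line, in HPC (4 mice per group) and meninges (4 WT, 3 5xFAD and 3 5xFAD+L). In HPC the 5xFAD and 5xFAD+L points of Psmb8 and Psmb9 lie above the WT points, those of Psmb10 overlap them, and the meninges points lie above all HPC points for Psmb8 and Psmb9 and overlap them for Psmb10, where the lowest meninges library is at 30.5% and the highest HPC library at 32.2%.

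Nlrc5, which switches on class I genes, had few reads in HPC. The 4 WT libraries held 2, 5, 7 and 5 counts, the 5xFAD libraries 68, 31, 37 and 26, and the 5xFAD+L libraries 61, 14, 58 and 37, which is 0.03 to 0.09, 0.19 to 0.47 and 0.20 to 0.63 FPKM. Neither 5xFAD group overlapped WT in counts. In a fit without the filter on low values the difference between 5xFAD and WT was 3.03 on the log2 scale (SE 0.577, edgeR adjusted p = 0.00373), and between 5xFAD+L and 5xFAD it was 0.18 (SE 0.48, adjusted p = 0.877). These rest on few counts in WT.

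Other genes of the pathway in HPC followed the members in part. Of 20 other class I heavy chain genes 9 were tested and 8 rose in 5xFAD mice, among them H2-T23, which encodes the ligand Qa-1 of an inhibitory NK receptor (1.99, SE 0.251), H2-M3, which presents formylated peptides (1.46, SE 0.191), H2-Q6 (3.13, SE 0.579) and H2-T22 (0.61, SE 0.123). Among 15 tested regulators of class I transcription 5 rose, among them the interferon-regulatory factors Irf9 (2.12, SE 0.243) and Irf8 (2.53, SE 0.295) and the NF-kB subunits Rela (0.48, SE 0.132) and Nfkb1 (0.81, SE 0.222). Irf1 missed the threshold (0.83, SE 0.244, edgeR adjusted p = 0.0516), and the constant factors of the class I enhanceosome did not pass the test, with Rfx5 at -0.38 (SE 0.266), Rfxank at 0.22, Rfxap at -0.16, Creb1 at -0.09 and Nfya, Nfyb and Nfyc between -0.12 and -0.01. All 17 tested interferon-response genes outside the pathway rose, Ifit3 (2.78, SE 0.204), Usp18 (3.48, SE 0.296) and Oasl2 (3.37, SE 0.315) with the lowest p, and the interferon receptor chains Ifngr1 (0.90, SE 0.131) and Ifnar2 (0.63, SE 0.166) rose among 7 tested genes of that group. Transcripts of interferons themselves were scarce: Ifng was listed at 0 in all 12 HPC libraries and Ifnb1 did not exceed 0.24 FPKM.

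Markers of several cell types moved with these genes. All 10 of the fixed microglial markers rose in 5xFAD HPC, with summed levels of 441 to 501 FPKM in WT, 1242 to 2248 in 5xFAD and 965 to 1609 in 5xFAD+L mice and C1qb the most abundant in every library. Of 10 markers of plaque-associated microglia 9 rose, with sums of 150.2 to 185, 873 to 1654 and 625 to 1396 FPKM and Tyrobp the most abundant. Of the pan-leukocyte markers 3 of 4 rose, as did 5 of 10 leptomeningeal fibroblast markers (summed FPKM 52.6 to 119 in WT, 105.8 to 158.5 in 5xFAD and 31.8 to 49.9 in 5xFAD+L). Astrocyte markers summed to 1392 to 1654 FPKM in WT and 1899 to 3923 in 5xFAD mice, and 2 of 5 rose, Gfap (2.47, SE 0.451) and Aqp4 (0.88, SE 0.229). The B cell marker Ighm rose as well (1.71, SE 0.182), from 8.84 to 17.63 FPKM in WT to 37.3 to 53.6 in 5xFAD mice. At low levels, the border macrophage marker Pf4 (1.63, SE 0.434) and the neutrophil marker S100a8 (2.41, SE 0.668) also rose. The 7 T cell markers summed to 1.36 to 3.14 FPKM in WT and 1.21 to 4.87 in 5xFAD mice, with Trac the most abundant, and only 1 passed the filter, which did not pass the test. Between 1 and 5 of them were above 0 in a WT library and 6 or 7 in a 5xFAD library. Cd8b1 was at 0 in all 4 WT mice and at 0.04 to 0.27 FPKM in 5xFAD mice, and the mean of Cd3g was 0.025 and 0.3125. The part of these cells, in number or state, in the levels of the class I genes was not tested. Without the 3 HPC libraries rich in choroid plexus markers, a comparison chosen after the data were seen, the members called in 5xFAD against WT still numbered 8, with log2 fold changes of 2.21 for H2-D1, 1.85 for H2-K1, 1.93 for B2m, 1.92 for Psmb8 and 2.05 for Psmb9.

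The upstream sequences of the chains that rose together were read from RefSeq's promoter table (GRCm38.p6, 250 bases before each start), which held 8 of the 10 genes and lacked Tap2 and Nlrc5. Searched on both strands were an NF-kB-like motif (GGG and TTNCC with 2 bases between them), interferon-response-like motifs (GAA or GAAA and, 2 bases on, GAAA), an X2-like motif (TGACG) and the Y box (CCAAT), letters chosen with the members' sequences in view. Among all 32851 promoters of the table the NF-kB-like motif occurred in 4.11%, the interferon-response-like motifs in 6.31% and 2.98%, the X2-like motif in 17.8% and the Y box in 33.9%. The stretches below are shown because their genes form the class I molecule and share the arrangement. Capitals mark the matches, on the strand shown or its complement, in the order NF-kB-like, interferon-response-like, X2-like and Y box, except in B2m, where the interferon-response-like match comes first. No match overlapped another. The H2-D1 stretch lies before the RefSeq start but inside the longer gene span of GENCODE given above, where part of the sequence is transcribed, so H2-D1 is shown over 30 bases only and Tap1 is not shown.
H2-K1, chr17:34000349-34000468, minus strand: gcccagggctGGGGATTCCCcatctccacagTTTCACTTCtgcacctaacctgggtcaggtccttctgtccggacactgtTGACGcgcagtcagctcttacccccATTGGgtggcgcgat
H2-D1, chr17:35262923-35262952, plus strand, from the NF-kB-like to the interferon-response-like match: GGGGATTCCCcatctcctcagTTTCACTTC
B2m, chr2:122147538-122147648, plus strand: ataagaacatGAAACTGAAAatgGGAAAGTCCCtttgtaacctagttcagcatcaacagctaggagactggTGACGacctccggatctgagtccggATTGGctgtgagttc
The 30 bases shown for H2-D1 were identical to H2-K1 at 29 positions. H2-D1 also had the X2-like motif at bases -101 to -97 and Y boxes at -76 to -72 and -53 to -49 from its start. The 4 kinds of motif occurred together in 15 of the 32851 promoters (0.0457%), 3 of which were these. Tap1 and Psmb9, whose RefSeq starts face away from each other with 225 bases between them while the longer GENCODE models overlap, shared 1 X2-like motif and 1 Y box in that stretch and had neither of the other kinds. Tapbp had only Y boxes, and Psmb8 and Psmb10 had no match, although Psmb8 rose 4.55-fold and Psmb10 did not pass the test. A match is a description of the letters and was not linked here to binding.

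**Figure D4:**
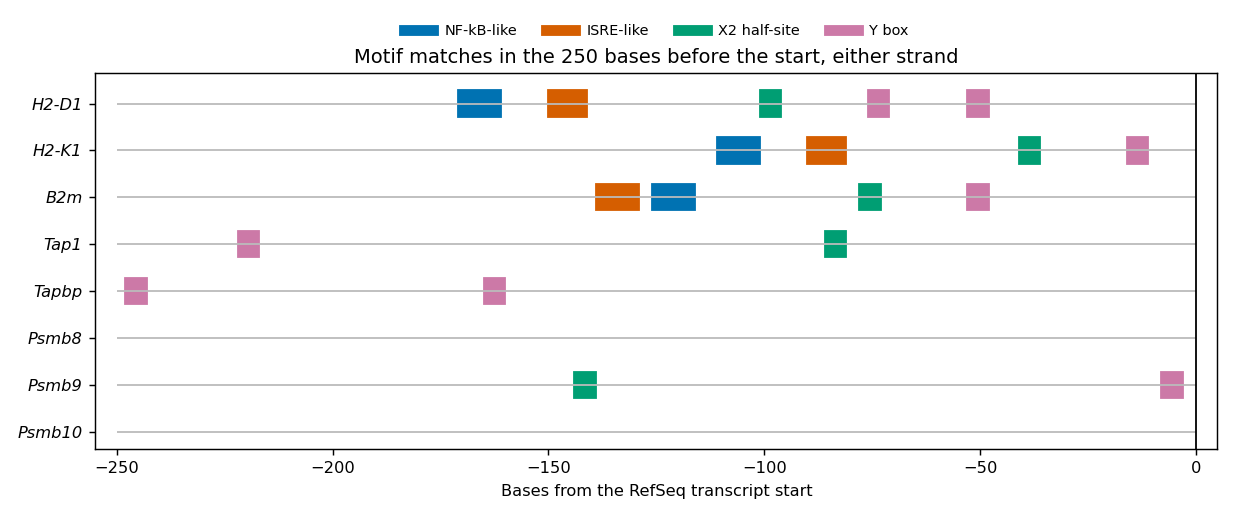
Positions of the 4 kinds of motif, on either strand, in the 250 bases before the RefSeq start of the 8 genes in the table, with the start at 0. H2-D1, H2-K1 and B2m carry all 4 kinds, Tap1 and Psmb9 the X2-like motif and the Y box, Tapbp the Y box alone, and Psmb8 and Psmb10 none.

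Light treatment was compared with no treatment in 5xFAD mice. In HPC no member passed the test between 5xFAD+L and 5xFAD mice, where 0.455% of all tested genes were called by edgeR and 18.3% had an unadjusted p below 0.05, and DESeq2 called 0 members as well. By sign 1 of the 9 tested members, Tap1, was higher in light-treated mice and 8 were lower, where 47.5% of all tested genes were higher, with log2 fold changes from -0.44 to 0.07. The member with the lowest p was Tapbp (log2 -0.44, 95% interval -0.78 to -0.10, unadjusted p = 0.0154, edgeR adjusted p = 0.169), the only one with an unadjusted p below 0.05. For the chains of the class I molecule the intervals ran from -0.82 to 0.18 for H2-D1 (estimate -0.32), from -0.66 to 0.42 for H2-K1 (-0.12) and from -0.73 to 0.13 for B2m (-0.30), so a fall or a small rise could not be told apart. The estimates were -0.14 for Psmb8 (-0.65 to 0.36), -0.15 for Psmb9 (-0.80 to 0.50), -0.29 for Psmb10 (-0.61 to 0.02), -0.21 for Tap2 (-0.50 to 0.09) and 0.07 for Tap1 (-0.33 to 0.46). No member separated the light-treated from the untreated mice, where 3.66% of genes were higher and 3.98% lower without overlap. None of the other class I heavy chains, loading partners, activators, regulators or interferon-response genes passed this test either, and 16 of the 17 interferon-response genes were lower by sign (median -0.52). In the same contrast 4 of 10 leptomeningeal fibroblast markers fell, among them Col6a2 (-2.77) and Col6a1 (-2.39), where 0.185% of all genes fell, and the summed choroid plexus markers were between 63.4 and 244 FPKM in light-treated mice against 207 to 3218 in untreated mice. The part of this difference in dissected tissue was not tested. Without the libraries rich in choroid plexus markers the count of members was again 0.

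Against WT, light-treated HPC kept 7 members higher, 6 of them by at least 2-fold, and these 7 did not overlap WT, where 3.05% of all tested genes were higher by edgeR, 2.26% by at least 2-fold and 7.33% without overlap. This contrast shares its WT mice with that of untreated 5xFAD mice and is not independent of it. The log2 fold changes beside those of untreated mice were 2.05 against 2.37 for H2-D1, 1.85 against 1.97 for H2-K1, 1.70 against 1.99 for B2m, 1.36 against 1.30 for Tap1, 2.04 against 2.19 for Psmb8 and 1.98 against 2.13 for Psmb9. Tap2 passed at 0.59 (SE 0.137, edgeR adjusted p = 0.0272) but lost the call without any 1 of the 4 light-treated mice or of WT replicates 1, 3 and 4 (adjusted p from 0.0539 to 0.0912). Tapbp did not pass (0.43, SE 0.159, edgeR adjusted p = 0.194), and Psmb10 was at WT level (-0.004, 95% interval -0.32 to 0.31).

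In the meninges no member differed between 5xFAD and WT mice by edgeR, and neither did any of the 14318 tested genes (0%), with 574 genes at an unadjusted p below 0.05 (4.01%) and no member among them. H2-D1 was at 369.8, 395, 228 and 373 FPKM in WT, at 217, 412 and 359.7 in 5xFAD and at 465, 592 and 182 in 5xFAD+L meninges, and the 3 groups overlapped. B2m was at 1488, 1406, 654 and 866 FPKM in WT, at 1048, 1055 and 1947 in 5xFAD and at 2347, 1716 and 2395 in 5xFAD+L meninges. The 3 light-treated values of B2m lay above all 4 WT values, and 2 of them above the highest untreated one. The log2 fold changes of the 10 members between 5xFAD and WT ran from -0.27 to 0.29, and the intervals reached from -0.88 to 1.04. For each of the 8 members that rose in HPC the estimate of HPC lay above the interval of the meninges, for example for H2-D1 (-0.83 to 0.73), B2m (-0.45 to 1.04), Psmb8 (-0.78 to 0.61) and Tap2 (-0.86 to 0.60). This leaves out the error of the HPC estimates and is not a test of a difference between tissues. In the interaction test given below Tap1, Tap2 and Tapbp did not pass, and no member passed without the HPC libraries rich in choroid plexus markers. DESeq2 called 0 members too.

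Between light-treated and untreated 5xFAD meninges no member passed either, where 2 of the 14318 genes did (0.014%) and 12.7% had an unadjusted p below 0.05. By sign 9 of 10 members were higher in light-treated mice, against 53% of all genes. The largest were Psmb9 (log2 0.73, 95% interval -0.05 to 1.52, unadjusted p = 0.0635, edgeR adjusted p = 0.412) and B2m (0.69, -0.12 to 1.49, unadjusted p = 0.0892, adjusted p = 0.449). Psmb9 was at 23.6, 35.5, 23.1 and 41.2 FPKM in WT, at 20.9, 31.1 and 40.2 in 5xFAD and at 69.9, 47.1 and 36.2 in 5xFAD+L meninges, with the third light-treated library inside both other groups. Without light-treated replicate 1, the library high in erythroid and neutrophil markers, Psmb9 was at 0.37 and B2m at 0.57, 7 of the 10 members were higher by sign, and Psmb8 moved from 0.23 to -0.20. Nlrc5 showed how the units can part: its FPKM did not overlap, as for 10.1% of genes that were higher (3.12, 2.34 and 2.27 against 1.27, 1.90 and 2.02), but its counts did (113, 113 and 72 against 32, 108 and 95) and the fitted difference was 0.01 (-0.87 to 0.89). Against WT, light-treated meninges had a B2m log2 fold change of 0.98 (95% interval 0.23 to 1.72, unadjusted p = 0.0138) and a Psmb9 of 0.75 (0.03 to 1.47, unadjusted p = 0.0431), which did not pass after adjustment (edgeR adjusted p = 0.195 and 0.293, with 0.014% of genes called and 16.4% at an unadjusted p below 0.05). Without light-treated replicate 1 these estimates were 0.86 for B2m and 0.39 for Psmb9. Over the alternatives the B2m estimate ran from 0.73 to 1.17. B2m was the 1 member whose light-treated and WT libraries did not overlap, where 6.99% of genes were higher in this way. The 18 interferon-response genes were all higher by sign in light-treated than in untreated meninges (median 0.92) and 0 passed. Neutrophil markers summed to 597 to 3009 FPKM in 5xFAD and to 630.4 to 7327 in 5xFAD+L meninges and pan-leukocyte markers to 147.5 to 282 and 204 to 496, and their part in these levels was not tested.

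**Figure D5:**
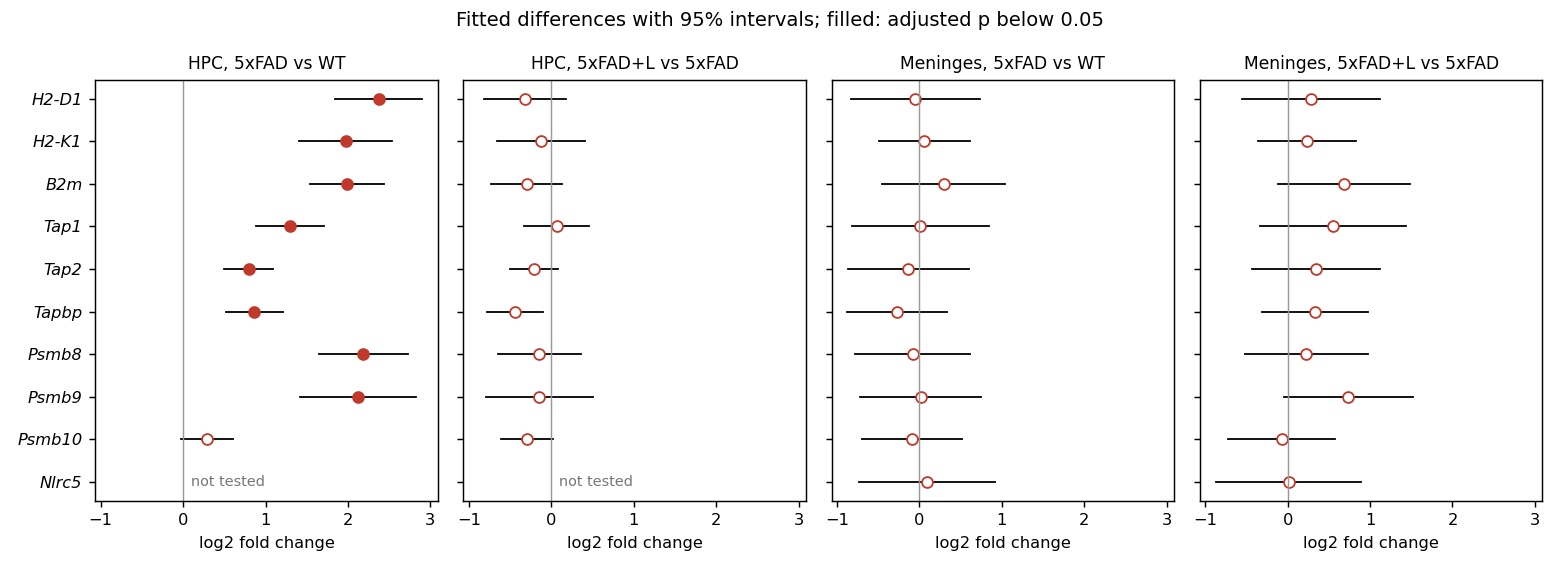
Fitted log2 fold changes with 95% intervals for 5xFAD against WT and 5xFAD+L against 5xFAD in HPC and meninges, with filled points for an edgeR adjusted p below 0.05 and 0 as a grey line. The filled points are the 8 members in HPC of untreated 5xFAD mice, all intervals in the meninges cross 0, and Nlrc5 is not tested in HPC.

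Whether the difference between 5xFAD and WT itself differed between the tissues was tested as an interaction over the 22 libraries of HPC and meninges. The difference was smaller in meninges for 6 of the 10 members, where 1.67% of the 15132 tested genes were lower by the same rule. These were H2-D1 (log2 difference -2.42, SE 0.467, edgeR adjusted p = 0.00703), H2-K1 (-1.91, SE 0.377, 0.00825), Psmb8 (-2.26, SE 0.422, 0.00538), Psmb9 (-2.10, SE 0.495, 0.0302), Nlrc5 (-2.95, SE 0.717, 0.0355) and B2m (-1.70, SE 0.419, 0.0386). Nlrc5 passed the filter of this joint fit through the meninges libraries, was below the filter in HPC alone and rests on 2 to 7 counts in a WT HPC library, so without it the count is 5 of 9. Nlrc5 also lost its call with the replicate number as a block. The other 4 had the same sign without passing, Tapbp at -1.14 (adjusted p = 0.0838), Tap1 at -1.28 (0.178), Tap2 at -0.93 (0.279) and Psmb10 at -0.38 (0.673). The median over all tested genes was -0.11. H2-D1, H2-K1 and Psmb8 passed in each of the 15 fits that left out 1 library, while B2m lost its call in 10 of them and Psmb9 and Nlrc5 in 9 each. The count was 3 without meninges 5xFAD replicate 1 or 2, meninges WT replicate 2, HPC 5xFAD replicate 1 or HPC WT replicate 1, 2 or 4. Without the 3 HPC libraries rich in choroid plexus markers it was 0, with estimates between -1.59 and -2.80 for these 6 genes and adjusted p between 0.0549 and 0.1799. The corresponding interaction for light treatment gave 0 members, where 1.05% of genes were called and 19.8% had an unadjusted p below 0.05, with B2m (0.94, unadjusted p = 0.0394) and Tapbp (0.75, unadjusted p = 0.0347) the only members under 0.05.

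In mLECs no member passed in any comparison, and among the 8188 tested genes edgeR called none between 5xFAD and WT (0%) or between 5xFAD+L and 5xFAD (0%) and 1 between 5xFAD+L and WT (0.0122%), with 3.81%, 4.01% and 6.72% at an unadjusted p below 0.05. DESeq2 called 0 members in the 3 comparisons, and 1 member, B2m, had an unadjusted p below 0.05. The spread between these low-input libraries was wide (biological coefficient of variation 1.89, against 0.198 in HPC and 0.35 in meninges). B2m was the steadiest member, at 3839, 3398, 3436 and 3906 FPKM in WT, 3314, 3704 and 3021 in 5xFAD and 6895, 4886 and 4417 in 5xFAD+L mLECs. Every light-treated library lay above every other library for B2m, and its log2 fold change between 5xFAD+L and 5xFAD was 0.72 (95% interval 0.15 to 1.29, unadjusted p = 0.0165, edgeR adjusted p = 1), in a comparison where 3.55% of genes were higher without overlap (3.64% against WT). H2-D1 was at 2063, 1361, 2973 and 1551 FPKM in WT, 1574, 2099 and 1178 in 5xFAD and 1315, 1318 and 1873 in 5xFAD+L mLECs, and H2-K1 at 739.7, 759, 993 and 811, at 884, 1248 and 395 and at 821, 714 and 1245. Neither heavy chain separated the groups. The interval of H2-K1 between 5xFAD+L and 5xFAD ran from -0.74 to 1.15.

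The TAP subunits were listed at or near 0 in some mLEC libraries and at high levels in others. Tap1 was listed at 0.06, 0.02, 19.7 and 0 FPKM in WT, 19.4, 66.0 and 0 in 5xFAD and 22.2, 23.3 and 4.41 in 5xFAD+L mLECs. Tap2 was at 38.9, 79.2, 40.2 and 89.4 FPKM in WT, 19.8, 0.02 and 4.04 in 5xFAD and 0.75, 25.6 and 32.9 in 5xFAD+L mLECs, so every WT library lay above every library of both 5xFAD groups. The fitted difference of Tap2 between 5xFAD and WT was -3.01 (95% interval -6.51 to 0.49, unadjusted p = 0.0859, edgeR adjusted p = 1.00), where 1.22% of genes were lower without overlap, and between 5xFAD+L and WT it was -1.61 (95% interval -4.89 to 1.66), where 2.03% were. In 5xFAD replicate 2 Tap1 had 2736 counts and Tap2 had 1, while in WT replicate 4 Tap1 had 0 counts and Tap2 had 7511. Psmb8 reached 895 FPKM in light-treated replicate 1 against 109 to 479 in the other 9 libraries. For the remaining genes the intervals between 5xFAD and WT were wide, from -3.22 to 8.08 for Tap1, -1.64 to 0.60 for Tapbp, -1.04 to 1.79 for Psmb8, -2.54 to 1.27 for Psmb9, -0.94 to 1.78 for Psmb10 and -6.96 to 5.45 for Nlrc5. Between 5xFAD+L and 5xFAD they ran from -6.62 to 5.31 for Tap1, -2.0 to 4.80 for Tap2, -1.06 to 1.32 for Tapbp, -0.91 to 2.14 for Psmb8, -1.16 to 2.88 for Psmb9, -1.03 to 1.90 for Psmb10 and -6.63 to 6.41 for Nlrc5. The groups overlapped in each of these comparisons. Without WT replicates 2 and 4, the libraries low in lymphatic markers, the count of members called stayed at 0 in both comparisons with WT, the Tap2 difference was -2.53 and that of H2-D1 moved from -0.52 to -0.87 between 5xFAD and WT and from -0.55 to -0.89 between 5xFAD+L and WT. Without 5xFAD replicate 4, the library high in erythroid markers, the count was again 0, the differences between 5xFAD and WT were -2.62 for Tap2 and 0.23 for H2-K1 (from -0.16), and that of B2m between 5xFAD+L and 5xFAD was 0.68.

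Among themselves the members varied together most in HPC. Over the 12 HPC libraries, which span the 3 groups, the Pearson correlations of log2(FPKM + 1) between pairs of the 9 tested members had a median of 0.861 (36 pairs, from 0.204 to 0.989), the highest for H2-D1 with H2-K1 and the lowest for Psmb10 with Tap2. They had a median of 0.612 in meninges (45 pairs, 10 libraries) and 0.382 in mLECs (45 pairs, from -0.739 to 0.915). The genes most like the mean of the tested members in HPC were Irgm1 (r = 0.992), Gbp3 (0.988), Cxcl10 (0.985), C1qc (0.984) and Ifi204 (0.983), followed by Ifitm3, Gna15, Ctss, Ctsh and C1qb. In meninges they were Irf8 (0.947), Ly6e (0.933), Smco4 (0.925), Cd3e (0.921) and Tapbpl (0.92), followed by H2-T23, Cd52, Urah, Hebp1 and Gsdmd, and in mLECs they began with Ndufa2 (0.934) and Uqcrq (0.893). These correlations share libraries and groups, so differences between the groups enter them, and they are given as a description. How far members vary together within a group was not tested.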

How the data were processed

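Per the paper, reads were filtered with fastp and quantified with RSEM, and the submitters' processing notes also list Trimmomatic, HISAT2, StringTie, DESeq2 and mm10, with no role given. The authors deposited expected counts per gene, not normalized, and FPKM, scaled by transcript length and library size, in 1 table for HPC and meninges and 1 for mLECs. After rounding, the counts were scaled by TMM and fitted by the quasi-likelihood method of edgeR 4.0.16 (R 4.3.3), with the 3 groups of a tissue in 1 fit and with all 22 HPC and meninges libraries in 1 fit for comparisons between tissues. A gene was tested where 3 or more samples reached 1 FPKM, p-values were Benjamini-Hochberg adjusted over all of them, and an adjusted p below 0.05 was called, with a 2-fold change counted separately. Replicates were different mice, and none of 42 replicate pairs agreed within counting noise (lowest chi-square per degree of freedom 9.25). Whether HPC and meninges came from the same mice is not given. Alternatives used DESeq2 1.42.0 and limma 3.58.1. The members, gene lists and markers were chosen with earlier results of these data known. Members were tested in each comparison where they passed the filter, which Nlrc5 did not in HPC alone, and the 2 to 4 genes of lowest p in each list are named, some of which are not reported here. H2-D1 and H2-K1 each name 2 identifiers in the HPC and meninges table and were joined by identifier. Steps were tested on simulated data.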

Additional observations from a re-analysis of the deposited data

Results flagged for a closer look

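Of 50 groups of 4 libraries (10 genes in HPC, and in the WT meninges and WT mLECs), 3 held a library far from its group, near the 1 in 20 that chance gives. H2-D1 was at 228.02 FPKM in meninges WT replicate 3, with the others between 369.78 and 394.87. Tap1 was at 19.72 FPKM in mLEC WT replicate 3, with the others between 0 and 0.06. Psmb9 was at 2.77 FPKM in HPC 5xFAD+L replicate 2, with the others between 7.91 and 8.82; this library was also the lowest of its group in H2-D1, H2-K1, B2m, Tap1, Tapbp, Psmb8, Psmb10 and Nlrc5 and in summed microglial markers (964.8 FPKM). The difference between 5xFAD and WT differed between meninges and HPC in the interaction test for H2-D1 (log2 difference -2.422), H2-K1 (-1.906), B2m (-1.698), Psmb8 (-2.262), Psmb9 (-2.097) and Nlrc5 (-2.954), with the dependence on single libraries given above.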

How the results depend on the processing

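Counts of members called stayed within 1.5 times the reported ones in every alternative except for the interaction of 5xFAD with tissue. There 6 members, all past 2-fold, became between 3 and 7 with 1 library left out, and 0 without the HPC libraries rich in choroid plexus markers, chosen after the data were seen. The cause was not tested, and the latter fit has 3 fewer libraries. Besides the 7 libraries named above, B2m lost this call without meninges WT replicate 1, HPC 5xFAD replicate 3 or HPC WT replicate 3, Psmb9 without meninges WT replicate 4 or HPC 5xFAD replicate 4, and Nlrc5 without meninges WT replicate 4 or HPC 5xFAD replicate 3. Of 31 member differences called, 0 changed sign. Tap2 in light-treated HPC against WT lost its call with limma on log2(FPKM + 1) and log2(FPKM + 0.1) (adjusted p = 0.0669 and 0.0537), and Nlrc5 in the interaction with limma (adjusted p = 0.518 and 0.147). Tapbp in the interaction passed with DESeq2 (adjusted p = 0.0278) and without meninges WT replicate 3 (0.0263). Over all 1967 alternative values of single members, 112 changed sign, all of them of differences that were not called. Within a tissue, the correlation of same-numbered deviations lay between -0.286 and 0.088 in HPC, -0.303 and 0.235 in meninges, and -0.032 and 0.012 in mLECs. It was above 0.1 in 2 of 9 pairs in meninges and in none in HPC and mLECs. Low values do not show that samples were unpaired. Pairing between HPC and meninges was not checked. With the replicate number as a block, 8 members were called in HPC between 5xFAD and WT and 5 in the interaction, where Nlrc5 was lost (adjusted p = 0.0572), and no other call changed. Low counts limit Nlrc5 in HPC, and the spread between mLEC libraries leaves intervals of several log2 units for Tap1, Tap2 and Nlrc5.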

Other observations

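The class II genes, which present peptides of proteins taken up from outside to CD4 T cells, were set beside the class I members. In HPC 5 of 8 rose in 5xFAD against WT mice, H2-Ob (log2 2.76, SE 0.272), H2-DMb1 (1.93, SE 0.299), H2-Oa (2.33, SE 0.494), Cd74 (3.48, SE 0.847) and H2-Ab1 (3.40, SE 0.887), and 7 of 8 in light-treated against WT mice. Light-treated and untreated mice were not separated in any class II gene by the test, and the levels were uneven: Cd74 ranged from 14.1 to 352 FPKM over the 4 light-treated mice and from 31.3 to 52.2 over the 4 untreated mice. In the 4 WT mice Cd74 was at 1.36 to 6.07 FPKM. Ciita, the class II counterpart of Nlrc5, did not exceed 0.40 FPKM in any HPC library. In WT meninges all 8 class II genes were higher than in WT HPC, H2-Ab1 by 8.77 (SE 0.92) on the log2 scale. In the mLEC libraries Cd74 was at 0.16 to 1507 FPKM over the 4 WT, 4.52 to 503.5 over the 3 5xFAD and 228 to 381 over the 3 5xFAD+L libraries, and Ciita did not exceed 0.13 FPKM. The 4 pan-leukocyte markers were at 0 in all 10, while the B cell marker Cd79a and border macrophage markers were above 0 in some, as given above, and their part in the level of Cd74 was not tested.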
